A study of Mus musculus with 37 samples.

Results

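Embryos that lack maternal Bap1 were followed through the 2-cell stage by comparing late with early 2-cell embryos of that genotype across the transcriptome. The comparison rests on 6 of the 37 libraries of the series, 3 early and 3 late, taken by their sample titles. Of 55401 genes in the table, 14051 reached 1 FPKM (fragments per kilobase of exon scaled to the library total, the unit the authors deposited) in at least 2 of the 11 libraries of 2-cell embryos and were tested.

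The study asked how loss of BAP1, the deubiquitinase that removes ubiquitin from histone H2A, affects oocytes and the embryos made from them. Knockout embryos (matKO) came from Gdf9-iCre, Bap1 flox/flox females and wild-type B6 sperm, and control embryos came from Bap1 flox/flox females without iCre and the same kind of sperm. Gdf9-iCre acts in growing oocytes, so the egg lacks the gene while the embryo carries an intact paternal copy. Both genotypes were cultured in KSOM medium, and controls had 3 early and 2 late 2-cell libraries of total RNA. The labels give the stage but no hour of collection, and they do not say how many embryos a library holds or whether libraries came from separate mothers, so p-values measure the spread between these libraries only.

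The egg is loaded with RNA made during oocyte growth, and the fertilised mouse embryo first lives on that store. A minor wave of transcription in the late 1-cell and early 2-cell embryo is followed by the major wave in the late 2-cell embryo, when most zygotic genes start and much of the maternal RNA is removed. The minor wave includes the Dux and Zscan4 families, whose RNAs normally appear briefly and then decline, and the major wave brings genes for ribosomes, transcription and cell growth.

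Bap1 itself was at 7.05, 6.67 and 6.77 FPKM in the early and 9.69, 11.7 and 10.0 FPKM in the late matKO libraries, against 23.5, 29.2 and 24.8 FPKM in early and 24.4 and 20.9 FPKM in late control libraries. Every matKO library was below every control library. The labels do not say which part of the gene is removed, so some of this signal may lie outside it. Bap1 (ENSMUSG00000021901.10, chr14:31251450-31259944 on the plus strand of GRCm38) rose in matKO by 0.55 ± 0.13 log2 units (SE, limma, Benjamini-Hochberg adjusted p = 0.00409), a change that no longer passed when libraries were centred on their medians (0.27). In controls the change was -0.18 (adjusted p = 0.314).

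In matKO embryos 4112 genes rose (29.3% of those tested) and 2786 fell (19.8%) from the early to the late 2-cell stage, at an adjusted p under 0.05 in limma with Benjamini-Hochberg adjustment on log2(FPKM + 1), which makes 6898 called genes in all (49.1%). In controls 4318 rose (30.7%) and 3356 fell (23.9%) by the same test. All 3 late matKO libraries lay above all 3 early ones for 4693 genes (33.4%) and below them for 3370 genes (24.0%). The large changes in matKO were mostly rises. A change of at least 1 log2 unit was reached by 2483 rising genes (17.7%) and 943 falling genes (6.71%). A change of at least 2 was reached by 748 rising genes (5.32%) and 37 falling genes (0.263%). The share of rises among the called genes was 59.6%, and it depended on scaling, at 51.9% with TPM scaling, 39.3% with libraries centred on their medians, 44.2% with quantile normalization and 49.95% when genes needed a mean of 5 FPKM or more. Median centring moved the median change of all genes by -0.28 log2 units and quantile normalization by -0.21, so small changes are stated relative to the authors' scaling. FPKM are scaled to each library's total, so they do not show how much RNA an embryo holds.

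The libraries fell into their 4 groups. The first principal component held 63.8% of the variance and ran from the early matKO libraries (-57.1 to -67.7) through the early controls (-37.9 to -44.8) and the late matKO libraries (41.7 to 49.7) to the late controls (88.4 to 89.2). On this axis late matKO embryos stood between early and late controls, and early matKO embryos stood beyond early controls on the side away from the late libraries. Whether matKO embryos were younger within a stage or were changed at single genes cannot be told apart from these libraries. Genes at 1 FPKM or more numbered 10366 to 10528 in early and 11623 to 11904 in late matKO libraries. A single RNA, Gm23935, took 11.5% to 13.4% of the FPKM sum in early and 15.3% to 17.3% in late matKO libraries. When each library was rescaled without it, 55.2% of the called genes were rises. Early matKO replicate 2 stood apart in several minor-wave genes (Zscan4f at 6.46 FPKM against 40.1 and 41.3 FPKM), and without it 3767 genes rose and 2399 fell in matKO.

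**Figure D1:**
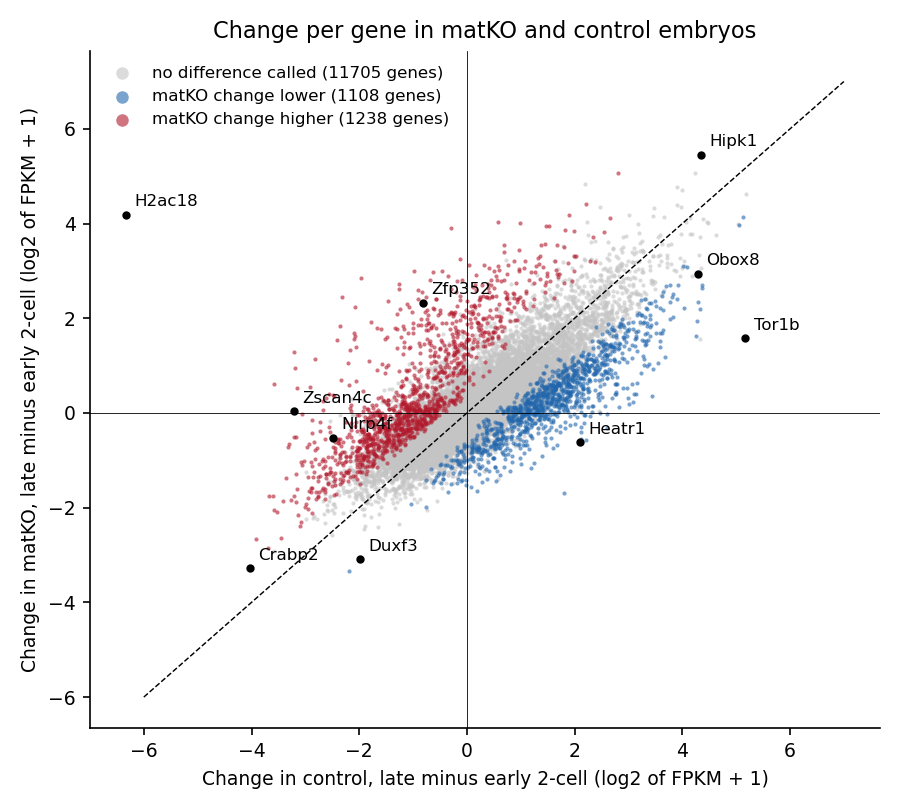
Each point is 1 of the 14051 tested genes, placed by its change from early to late 2-cell in controls (x axis) and in matKO (y axis), both in log2(FPKM + 1) units, with the dashed line marking equal change. Colours mark the 1238 genes whose change was higher in matKO and the 1108 whose change was lower, and most points lie along the diagonal with Zfp352, Zscan4c and Nlrp4f above it and Heatr1 and Tor1b below it.

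Most of the programme moved the same way in both genotypes, and by less in matKO. The changes in matKO and control, which share no library, had a Pearson r of 0.74 over 14051 genes. Genes do not count as replicates, so the r is descriptive. Of the genes that rose in matKO, 2994 also rose in controls, which is 72.8% of the matKO and 69.3% of the control risers. Of those that fell in matKO, 1976 also fell in controls, which is 70.9% of the matKO and 58.9% of the control fallers. Genes that rose in controls had a median change of 1.36 log2 units there and 0.89 in matKO, and genes that fell in controls had medians of -1.06 and -0.59. These sets were chosen in the controls, so part of that gap comes with the choice. Genes chosen by rising in matKO had medians of 1.17 in matKO and 1.21 in controls. The change itself differed between genotypes, by the interaction test in the same fit, for 1238 genes with the higher change in matKO (8.81%) and 1108 with the lower change (7.89%). These counts were 769 and 517 without replicate 1 of the late 2-cell (L2C) controls and 750 and 515 without replicate 2 of them. Below, E2C stands for early 2-cell. Opposite calls were few. There were 89 genes that rose in matKO and fell in controls and 63 that fell in matKO and rose in controls.

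The genes that rose most in matKO were at low levels before the late 2-cell stage. Hipk1 (ENSMUSG00000008730.17, chr3:103739815-103791563, minus strand), a nuclear protein kinase, was at 0.11, 0.40 and 0.31 FPKM in early and 59.5, 47.2 and 58.0 FPKM in late matKO libraries. The late values are far above the early ones with no overlap, and the rise was 5.45 ± 0.17 log2 units (SE, limma adjusted p = 9.48e-09). Hipk1 started higher in early controls, at 2.78 to 4.48 FPKM, and reached 89.4 and 102 FPKM, a rise of 4.35. The difference between the rises of Hipk1 was 1.10 (adjusted p = 0.013, and not called without control L2C replicate 2, at 1.01, or with quantile normalization, at 0.80). Mt1, a metal-binding metallothionein, went from 4.46, 4.32 and 10.1 FPKM to 158, 130 and 144 FPKM and rose by 4.40 ± 0.38 (adjusted p = 2.64e-06). Zscan5b, a zinc finger gene, went from 0.96, 0.27 and 1.34 to 52.5, 42.3 and 43.5 FPKM. Btbd18, which encodes a BTB domain protein, went from 2.63, 0.88 and 1.24 to 54.8, 47.0 and 47.5 FPKM. Both sets of libraries are separate in each of these genes, with rises of 4.70 for Zscan5b and 4.35 for Btbd18. Other large rises were seen for the thiamine transporter Slc19a3 (4.17), the cell adhesion gene Epcam (4.12) and the ER stress protein Selenos (4.10), none of which differed from controls at the threshold.

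Many of the strongest falls were of RNAs already abundant in the egg. Crabp2 (ENSMUSG00000004885.5, chr3:87948666-87953376, plus strand), a retinoic acid carrier, was at 108.5, 108.6 and 116 FPKM in early and 8.08, 15.6 and 9.27 FPKM in late matKO libraries. No early library came near a late one, and Crabp2 fell by 3.28 ± 0.19 log2 units (SE, limma adjusted p = 2.08e-07), beside a control change of -4.03. Rgs2, a regulator of G protein signalling that acts in the egg, went from 55.7, 95.5 and 73.3 to 7.03, 8.86 and 11.1 FPKM (-2.91). Rfpl4, an oocyte RING finger gene, went from 845, 746 and 819 to 118, 128 and 137 FPKM. It fell by 2.64 ± 0.11 in matKO (adjusted p = 3.71e-08), less than in controls by 0.81. Pttg1, the securin that holds back chromosome separation, went from 485, 452 and 465 to 93.4, 93.6 and 96.7 FPKM (-2.29). The prefoldin subunit gene Pfdn4 changed by -2.57, the splicing protein gene Snrpd3 by -2.38 and the beta tubulin gene Tubb3 by -2.25, all called.

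Levels at earlier stages were lower for the rising than for the falling genes. Genes that rose in matKO had median levels of 1.48, 1.29, 1.13 and 1.49 FPKM in matKO fully grown oocytes, MII eggs, late 1-cell and early 2-cell embryos and 6.66 FPKM in late 2-cell embryos. Genes that fell had medians of 20.4, 20.8, 20.8 and 14.9 FPKM at the same earlier stages and 7.35 FPKM at the end. The levels of the last 2 stages chose both sets, and those of the 3 earlier stages did not enter the test. A gene can be called falling only from a level present at the early 2-cell stage, while a silent gene can only rise. Under 1 FPKM in early matKO embryos were 1770 of the rising and 18 of the falling genes. Part of the contrast in earlier levels therefore comes with the choice, and how much was not tested. Under 1 FPKM in oocytes, eggs and 1-cell embryos were 1823 of the rising genes (44.3%), 62 of the falling genes (2.23%) and 1505 of the genes not called (21.04%). Of the 14051 tested genes, 311 went from under 1 FPKM to at least 5 FPKM in matKO and 344 in controls. Shared were 84, which is 27.01% of the matKO and 24.42% of the control genes. Both cut-offs must be met by the group means, so a gene that rose in both genotypes can be counted in only 1. By the test 72.8% of the matKO risers also rose in controls. In early controls the matKO risers had a median of 2.26 FPKM, above the 1.49 FPKM of early matKO embryos. From at least 5 FPKM to under 1 FPKM went 9 of the 14051 genes in matKO and 68 in controls.

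**Figure D2:**
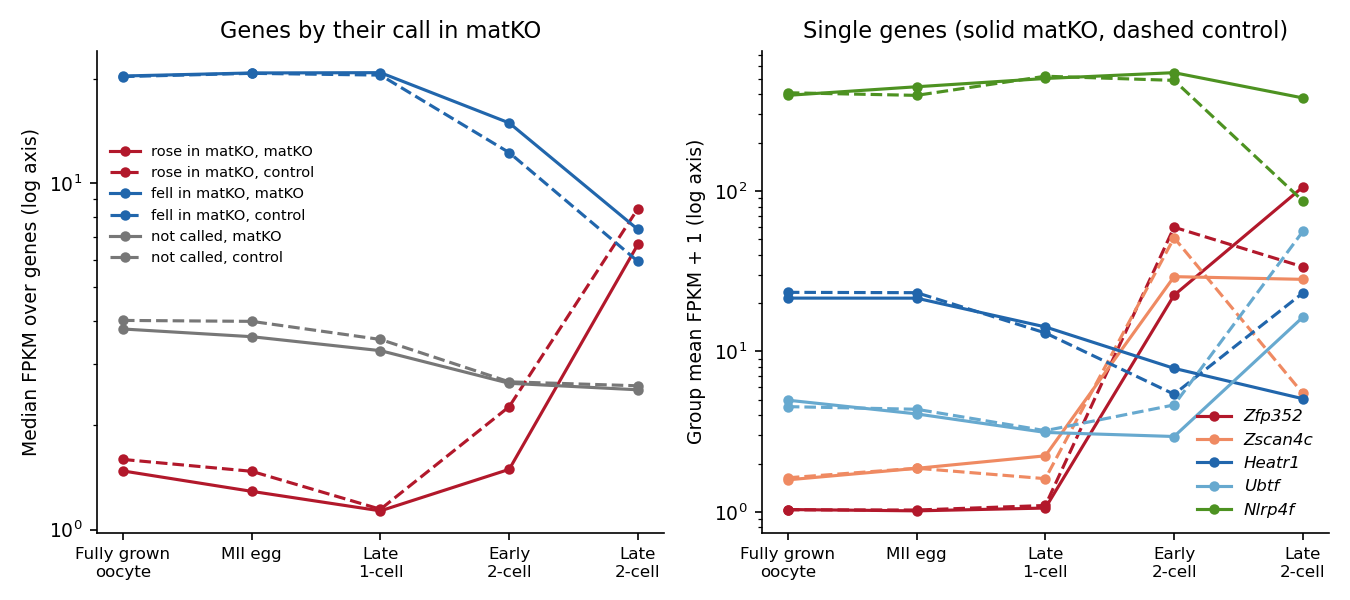
The left panel plots the median FPKM (log axis) over the genes that rose, fell or were not called in matKO at 5 stages from fully grown oocyte to late 2-cell, with solid lines for matKO and dashed lines for controls. The right panel plots group mean FPKM + 1 (log axis) of Zfp352, Zscan4c, Heatr1, Ubtf and Nlrp4f at the same stages. Solid lines are matKO and dashed lines are controls there too.

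Rising and falling genes differed in structure, given here as a description. Protein-coding genes that rose in matKO spanned a median of 18268 bases of genome with a median of 8 exons in the transcript with most exons. Those that fell spanned 30362 bases with 10 exons, and all tested genes spanned 25367 bases with 9 exons. Single-exon genes made up 4.59% of the risers and 1.70% of the fallers. Of the 37 tested genes of the mitochondrial genome 32 rose (86.5%), the highest share of any chromosome.

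Genes of the minor wave stood out by direction. Over all tested genes 29.3% rose and 19.8% fell in matKO, and 30.7% and 23.9% did so in controls. The difference was higher for 8.81% and lower for 7.89%. These shares stand beside each list count below, and no list was tested against them. Of the 44 genes listed, 36 were in the table and 35 were tested, of which 22 rose and 4 fell in matKO, with a median change of 1.35 log2 units beside 0.09 for all genes. In controls 8 rose and 16 fell, with a median of -0.54. The change was higher in matKO for 18 of the 35 and lower for 2. Without early matKO replicate 2, in which several of these genes were low, 21 rose and 5 fell.

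Zfp352 (ENSMUSG00000070902.5, chr4:90218820-90225702, plus strand), a zinc finger gene used as a marker of the 2-cell stage, was at 28.0, 11.2 and 25.03 FPKM in early and 119, 99.2 and 96.5 FPKM in late matKO libraries. In controls it was at 64.0, 54.9 and 56.4 FPKM early and 31.3 and 34.1 FPKM late. Late matKO embryos thus held the highest levels and early matKO embryos the lowest. Zfp352 rose by 2.33 ± 0.25 in matKO (SE, limma adjusted p = 1.43e-05) and changed by -0.82 in controls (adjusted p = 0.0269), a difference of 3.15 ± 0.38 (adjusted p = 0.000501). Tcstv3, of a gene family expressed at the 2-cell stage, went from 18.4, 9.62 and 18.8 to 96.7, 64.6 and 71.5 FPKM and rose by 2.28, although other genes hold 31.4% of the 50-base words of its exons. Usp17lc, of a family of deubiquitinase genes, rose by 1.35 in matKO and changed by -0.50 in controls, with a difference of 1.84 (adjusted p = 0.0032).

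Zscan4c, a zinc finger gene tied to telomere maintenance, did not pass the test in matKO, at 39.2, 13.6 and 31.9 FPKM early and 33.5, 20.0 and 27.9 FPKM late. The matKO ranges overlap, and the change of 0.04 ± 0.31 (adjusted p = 0.934) turned negative under other scalings and without early replicate 2 (-0.40). Controls went from 60.7, 43.1 and 46.4 to 4.49 and 4.45 FPKM. The control change of Zscan4c was -3.21, and the difference between genotypes was 3.25 ± 0.47 (adjusted p = 0.00125). Zscan4d had changes of 0.36 in matKO and -2.48 in controls. Zscan4f was at 40.1, 6.46 and 41.3 FPKM early and 68.8, 55.0 and 52.99 FPKM late. Its matKO change of 1.34 (adjusted p = 0.0491) was not called without early replicate 2 (0.51) or without any late replicate (1.23 to 1.41). Exonic 50-base words shared with other genes made up 85.5% of Zscan4c and 86.8% of Zscan4f, so members of this family may share reads.

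H2ac18, a histone H2A gene, differed most of the named genes between genotypes. It was at 1.16, 203 and 2.34 FPKM in early and 174, 252 and 202 FPKM in late matKO libraries, and at 186, 237 and 159 FPKM in early and 1.53 and 1.28 FPKM in late controls. Early replicate 2 lay in the range of the late libraries and replicates 1 and 3 did not. H2ac18 changed by 4.19 ± 1.22 in matKO (adjusted p = 0.0133), not called without early replicate 1 (2.99) or 3 (3.31), and by -6.33 in controls. Every exonic word of H2ac18 is found in other annotated genes, with 44 genes sharing words and Gm20633 sharing most. Whether the H2ac18 signal of early replicate 2 comes from the gene was not tested. Eif4a3l1, a copy of an RNA helicase gene, went from 19.2, 8.85 and 19.7 to 38.1, 27.4 and 25.9 FPKM in matKO (0.95, not called without late replicate 1, at 0.78) and from 25.4, 31.2 and 20.7 to 1.99 and 1.83 FPKM in controls (-3.19), and 47.5% of its words are shared.

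Duxf3, a gene of the Dux family of early activators, went the other way. It was at 19.2, 22.2 and 27.5 FPKM in early and 1.83, 2.45 and 1.20 FPKM in late matKO libraries, against 3.31 to 5.75 FPKM in early and 0.45 and 0.46 FPKM in late controls. Both genotypes ended low, and early matKO embryos held the highest values. Duxf3 fell by 3.09 ± 0.23 in matKO (limma adjusted p = 9.52e-07) and changed by -1.98 in controls. The difference of -1.12 (adjusted p = 0.0451) was -0.51 with a pseudocount of 0.1 (adjusted p = 0.513) and was also not called without a filter (-1.12), with quantile normalization (-1.02), with the replicate block (-1.23), or in 8 of the 11 fits that left out 1 library: control E2C replicates 1 and 2, matKO E2C replicates 2 and 3, both control L2C replicates, and matKO L2C replicates 1 and 3, with values from -0.91 to -1.21. Copies overlap here too, since 47.0% of the exonic words of Duxf3 occur in other genes. AW822073, which shares 52.1% of its own, with Duxf3 as the main partner, went from 25.8, 29.0 and 30.05 to 2.19, 2.25 and 1.35 FPKM. Its difference of -1.14 was -0.42 with a pseudocount of 0.1 (adjusted p = 0.463).

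**Figure D3:**
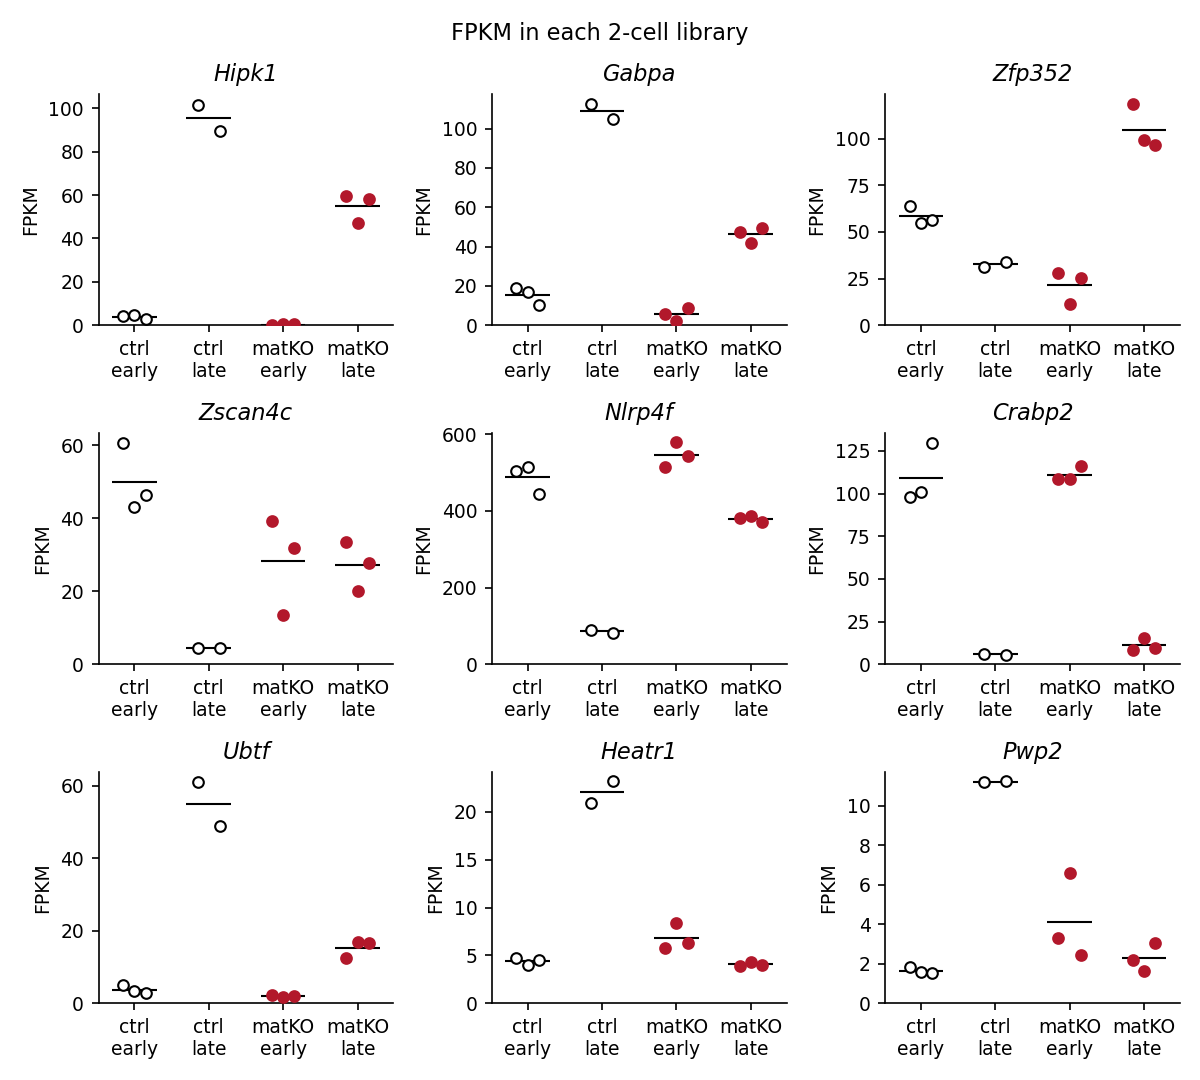
FPKM of 9 genes in each 2-cell library, with open points for controls, filled points for matKO and a bar at each group mean. Hipk1 and Gabpa go from low early to high late values in both genotypes, Zfp352 is highest in late matKO embryos, and Heatr1 and Pwp2 are high only in late controls.

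The Obox homeobox factors, several of them supplied by the egg and others made at the 2-cell stage, split into a rising and a falling set. All 7 tested members were called in both genotypes. Obox3 went from 3.82, 0.06 and 5.30 to 55.2, 36.8 and 55.7 FPKM in matKO, a rise of 3.96 ± 0.49 (limma adjusted p = 4.28e-05), while controls reached 40.2 and 46.6 FPKM from 12.9 to 17.4 FPKM. Its difference of 2.49 (adjusted p = 0.0393) was not called without any 1 of control E2C replicates 1, 2 and 3, control L2C replicates 1 and 2, and matKO L2C replicates 1 and 3 (2.39 to 2.60). Obox6 rose by 3.27, from 1.66, 0.67 and 0.77 to 24.9, 12.9 and 18.8 FPKM, and reached 109 and 96.2 FPKM in controls. Obox8 rose by 2.94, from 0.00, 0.08 and 0.32 to 5.73, 8.98 and 8.61 FPKM, and reached 53.1 and 60.1 FPKM in controls. The Obox8 difference of -1.35 became 0.47 with a pseudocount of 0.1 and was not called without either control L2C replicate (-1.44 and -1.26). Of the 4 falling members, Obox1, Obox5 and Obox7 fell less in matKO, and Obox2, at -2.10 in matKO and -2.48 in controls, had no called difference (0.37). Obox1 went from 562, 520 and 529 to 124, 139 and 124 FPKM, a change of -2.05 beside -3.59 in controls, and 57.4% of its exonic words occur in other genes. Obox5 changed by -1.01 in matKO and -2.68 in controls, and Obox7 by -1.28 and -3.17. The differences were 1.54 for Obox1, 1.67 for Obox5 and 1.89 for Obox7, all called.

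Of 25 tested transcription factors linked to genome activation, 11 rose and 4 fell in matKO, against 16 and 3 in controls, with 2 higher and 6 lower differences (2 lower without control L2C replicate 2). All tested genes stood at 29.3% risen and 19.8% fallen in matKO, with 7.89% lower differences. Gabpa, an ETS family factor, was at 5.79, 2.08 and 8.55 FPKM in early and 47.4, 41.6 and 49.6 FPKM in late matKO libraries. The late values were well above the early ones, and Gabpa rose by 3.01 ± 0.33 (SE, limma adjusted p = 1.71e-05). In controls Gabpa rose by 2.79, from 10.2 to 18.8 FPKM to 112 and 105 FPKM, so its late level was lower in matKO although the changes did not differ at the threshold (0.22). Klf5, a zinc finger factor of the early lineages, rose by 2.90, from 1.94, 1.68 and 4.46 to 26.3, 22.5 and 26.8 FPKM. Its control value was 2.72. Dppa4, a chromatin-binding factor upstream of Dux, rose by 3.13, and the nuclear receptor Nr5a2 rose by 1.16 ± 0.15 (adjusted p = 5.48e-05) from 9.57, 9.61 and 10.3 to 21.3, 19.4 and 30.4 FPKM, beside 1.17 in controls.

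Nfya, the subunit of the NFY factor that carries sequence recognition together with its partners, fell in matKO. It went from 63.2, 58.3 and 48.9 to 24.0, 28.8 and 28.3 FPKM, while controls went from 23.4, 25.8 and 20.2 to 31.0 and 30.1 FPKM. Early matKO embryos held more than any other group and the late levels of both genotypes were close. Nfya fell by 1.04 ± 0.13 in matKO (limma adjusted p = 4.34e-05) and changed by 0.39 in controls (adjusted p = 0.0372), a difference of -1.43 ± 0.20 (adjusted p = 0.00095). Tead4, which acts in the first lineage choice, was at 0.03, 0.04 and 0.00 FPKM early and 0.81, 0.43 and 1.36 FPKM late in matKO, and at 6.24 and 7.65 FPKM in late controls. Its matKO change of 0.84 was not called without late replicate 3 (0.65), with median centring (0.56) or with quantile normalization (0.48). The difference was -1.91 (adjusted p = 0.00391), not called with a pseudocount of 0.1 (-2.14, adjusted p = 0.204). Fgf4, the growth factor made by the future epiblast, reached 2.43, 0.76 and 1.22 FPKM in late matKO and 12.4 and 13.9 FPKM in late control libraries, with a difference of -2.49 (adjusted p = 0.00124), not called with a pseudocount of 0.1 (-2.82, adjusted p = 0.058).

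Genes for RNA polymerases I and III had the second highest share of lower differences of the lists. Over all tested genes 29.3% rose, 19.8% fell and 7.89% had a lower difference. Of 36 subunits and factors tested, 19 rose and 3 fell in matKO, with a median of 0.60 log2 units, against 31 and 1 with a median of 1.43 in controls. The change was lower in matKO for 15 and higher for 0 (lower for 8 without control L2C replicate 1 and 10 without control L2C replicate 2). Of 46 genes for RNA polymerase II and its general factors, 19 rose and 9 fell in matKO and 24 rose and 8 fell in controls, with 11 lower differences (7 without control L2C replicate 2). The median of the polymerase II genes in matKO was 0.23 and became -0.05 with median centring. Ubtf, the factor that opens ribosomal DNA to RNA polymerase I, was at 2.36, 1.57 and 1.91 FPKM in early and 12.5, 17.0 and 16.6 FPKM in late matKO libraries, and reached 60.9 and 48.98 FPKM in controls. Ubtf rose by 2.47 ± 0.20 in matKO (limma adjusted p = 1.88e-06) and by 3.61 in controls. The difference of -1.15 was not called without control L2C replicate 1 (-0.99) or matKO L2C replicate 1 (-1.01), with a pseudocount of 0.1 (-0.997), without a filter, or with the replicate block (-0.99). Taf1a, of the selectivity factor that places RNA polymerase I, was at 42.6, 67.7 and 42.5 FPKM early and 33.4, 32.2 and 35.8 FPKM late in matKO. Its change of -0.54 was not called without early replicate 2 (-0.32) or without late replicate 1 (-0.54) or 2 (-0.51). In controls Taf1a rose by 0.98, a difference of -1.53 (adjusted p = 0.00251). Others had no called difference. Polr1c, a subunit shared by polymerases I and III, rose by 2.54 in matKO and 2.87 in controls, and Taf1d by 2.71 and 2.02.

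Ribosome assembly had the highest share of lower differences of the 36 lists, beside 7.89% of all tested genes. Of 84 nucleolar assembly factors tested, 41 rose and 13 fell in matKO, with a median of 0.53 log2 units, and 69 rose and 5 fell in controls, with a median of 1.60. The difference was lower in matKO for 44 and higher for 1 (lower for 28 without either control L2C replicate). With median centring 34 rose and 19 fell in matKO. Heatr1 (ENSMUSG00000050244.9, chr13:12395027-12440289, plus strand), needed for transcription and processing of ribosomal RNA, was at 5.80, 8.38 and 6.34 FPKM in early and 3.91, 4.33 and 3.97 FPKM in late matKO libraries. In controls it went from 4.75, 3.98 and 4.49 to 20.96 and 23.3 FPKM. Only the late controls were high, and no late matKO library reached an early one. Heatr1 fell by 0.62 ± 0.16 in matKO (SE, limma adjusted p = 0.00626) and rose by 2.096 in controls, a difference of -2.71 ± 0.24 (adjusted p = 0.000101). Nol6, of the small subunit processome, went from 3.63, 2.94 and 3.59 to 0.91, 0.95 and 1.02 FPKM in matKO, a change of -1.16 beside 1.19 in controls. Pwp2 (ENSMUSG00000032834.11, chr10:78170909-78185149, minus strand), of the same processome, was at 3.33, 6.59 and 2.45 FPKM early and 2.20, 1.63 and 3.07 FPKM late in matKO, with overlapping ranges and a change of -0.57 ± 0.27 (adjusted p = 0.0968). Controls reached 11.2 and 11.3 FPKM, and the difference of Pwp2 was -2.79 ± 0.40 (adjusted p = 0.00125). Members of the list that rose in both genotypes with no called difference included Nol11 (3.22 in matKO, 2.99 in controls) and Nop2 (3.20 and 3.60), a ribosomal RNA methyltransferase that went from 1.97, 0.80 and 0.96 to 22.3, 17.0 and 18.4 FPKM.

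**Figure D4:**
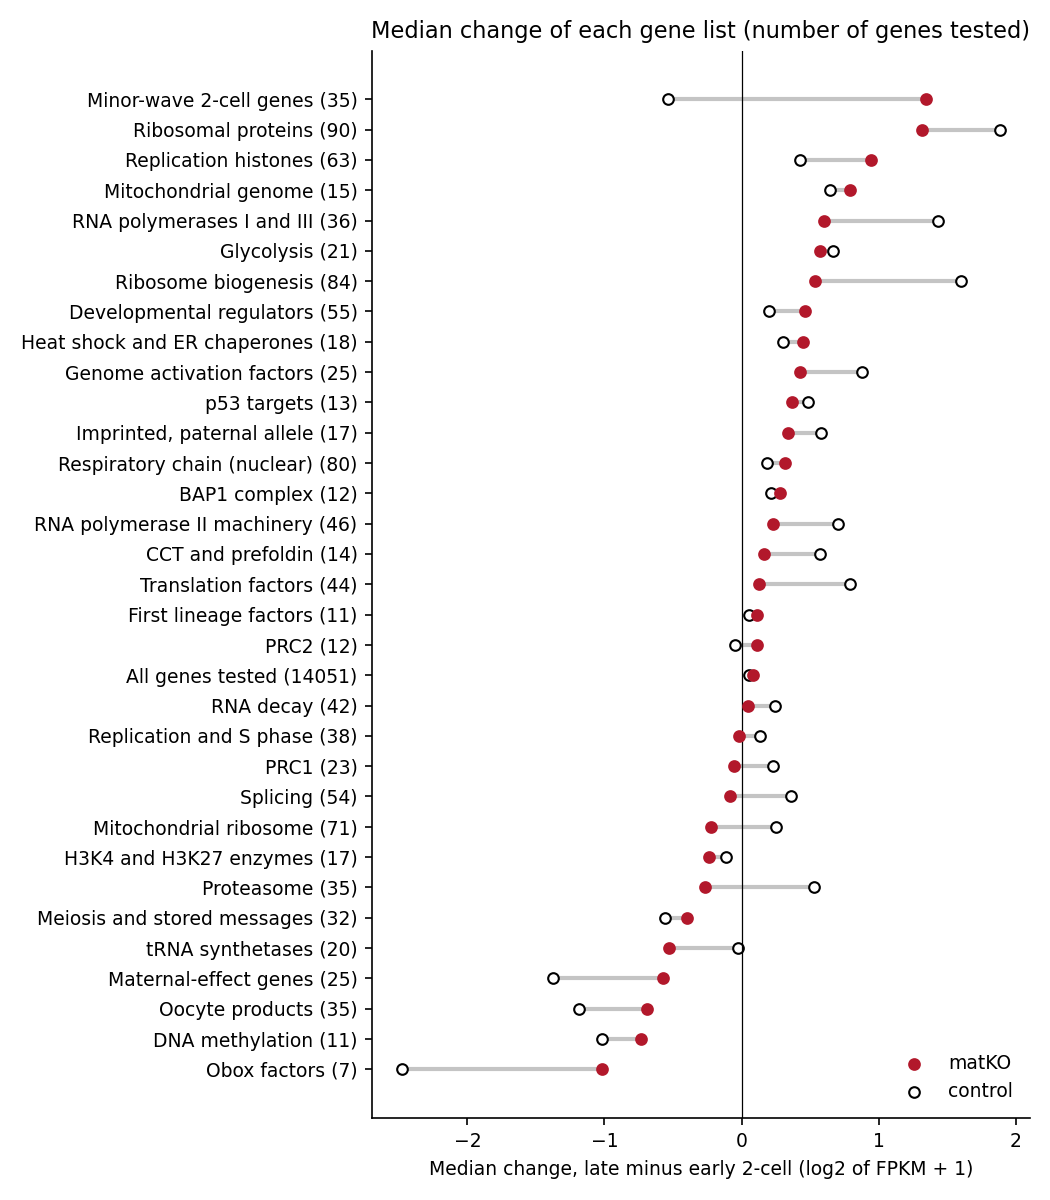
Median change from early to late 2-cell in log2(FPKM + 1) units over the tested members of each gene list (number in brackets), with matKO and control as separate points joined by a line. Ribosome biogenesis (0.53 in matKO, 1.60 in controls) and polymerase I and III genes (0.60 and 1.43) have the control point to the right, and minor-wave genes (1.35 and -0.54) have it to the left.

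The promoters of 4 such genes are shown because genes with a lower change in matKO held a short sequence more often than other genes. That sequence was 1 of a set of motifs searched, and others differed too, as given below. The sequence is the ETS core CCGGAAG, searched on both strands (CTTCCGG on the other), to which factors such as GABPA bind. Each line gives the 150 bases before the RefSeq transcription start in GRCm38.p6, read on the gene's minus strand, with the core in capitals. The search for examples covered 63 genes with a lower difference, those named for size or belonging to the polymerase I and III and ribosome assembly lists. Of these 50 had an entry, of which 15 held the core in the 150 bases and 24 in the longer window described below. Lck, Osbpl6, Ddx21, Nat10 and Nop56 have an entry with no core in either. The 4 printed have the largest differences within that set among stretches that hold the core and no annotated exon, at chr10:78185150-78185299 for Pwp2, chr10:40247040-40247189 for Rpf2, chr6:124712179-124712328 for Emg1 and chr2:26902888-26903037 for Surf6.
Pwp2: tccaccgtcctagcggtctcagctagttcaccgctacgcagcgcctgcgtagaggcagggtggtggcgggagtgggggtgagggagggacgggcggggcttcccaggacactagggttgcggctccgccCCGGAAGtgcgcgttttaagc
Rpf2: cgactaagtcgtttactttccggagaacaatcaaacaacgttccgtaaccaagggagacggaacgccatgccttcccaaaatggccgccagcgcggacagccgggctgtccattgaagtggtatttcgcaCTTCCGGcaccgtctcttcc
Emg1: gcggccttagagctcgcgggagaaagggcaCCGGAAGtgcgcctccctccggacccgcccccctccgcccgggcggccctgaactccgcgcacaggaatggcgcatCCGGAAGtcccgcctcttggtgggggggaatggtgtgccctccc
Surf6: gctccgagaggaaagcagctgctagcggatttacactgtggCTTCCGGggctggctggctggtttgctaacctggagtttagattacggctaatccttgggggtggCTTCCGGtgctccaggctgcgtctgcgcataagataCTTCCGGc

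Pwp2 and Rpf2 hold 1 core in this stretch, Emg1 holds 2 and Surf6 holds 3. Rpf2, a factor of large subunit assembly, was at 1.24, 2.79 and 1.65 FPKM in early and 4.28, 2.06 and 2.25 FPKM in late matKO libraries and at 14.4 and 11.9 FPKM in late controls. Its difference was -2.36 ± 0.43 (SE, limma adjusted p = 0.00397). Emg1, a methyltransferase of the small subunit, was at 1.91, 3.47 and 3.78 FPKM early and 6.45, 5.17 and 3.36 FPKM late in matKO, against 24.0 and 15.7 FPKM in late controls (difference -1.91, not called without control L2C replicate 1, at -1.62). The early and late matKO ranges of Rpf2 and Emg1 overlap. Surf6, a nucleolar matrix protein, went from 6.06, 6.49 and 8.71 to 14.9, 13.9 and 14.6 FPKM in matKO, a rise of 0.95 ± 0.18 (adjusted p = 0.0011), and reached 35.7 and 33.5 FPKM in controls.

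Over the window from 250 bases before to 50 after the start, the core was present in 19.01% of the 8892 tested protein-coding genes with a RefSeq entry. It was in 32.1% of 850 genes whose change was lower in matKO and in 15.2% of 722 genes whose change was higher. Over the alternative fits these shares ran from 28.4% to 35.8% and from 13.4% to 16.9%. Among genes that rose in controls it was in 33.1% of the 728 that rose less in matKO and in 18.9% of the 2224 with no called difference. Genes that rose in matKO held it in 18.3% and genes that fell in 20.99%, close to the share of all genes. Other motifs differed too. The GC box GGGCGG was in 52.9% of the genes with the higher change in matKO against 64.1% of all, and TATAAA was in 11.1% against 7.31%. A match is a string of letters, and binding was not measured. Gabpa, whose product binds the core, rose in both genotypes, and its late level was lower in matKO, as given above. Whether its level bears on these shares was not tested.

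**Figure D5:**
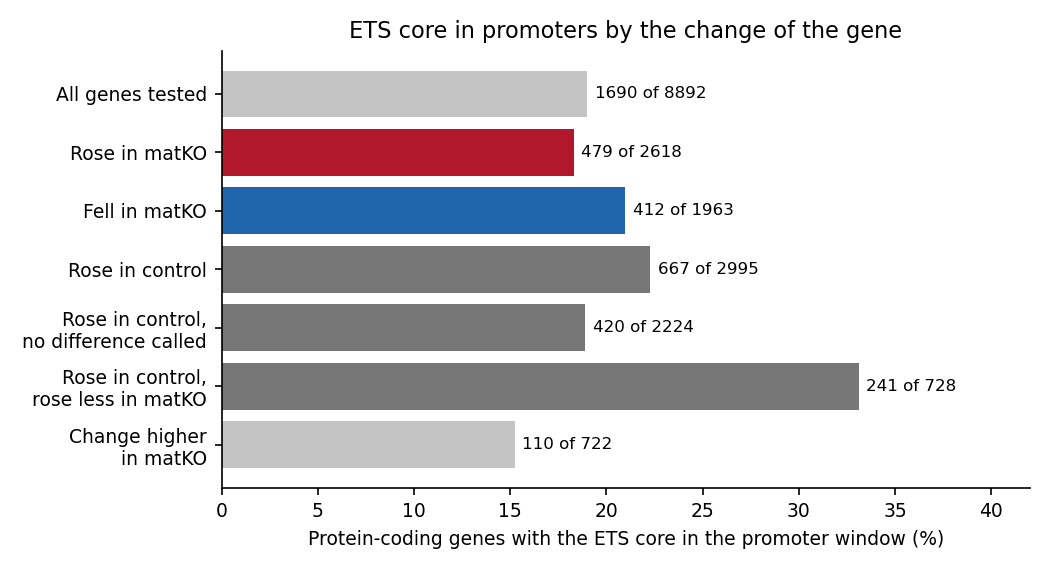
Percentage of protein-coding genes whose promoter window holds CCGGAAG on either strand, for all tested genes and for sets defined by the matKO change, the control change and the difference between them. The set that rose in controls and rose less in matKO stands at 33.1%. The other sets lie between 15.2% and 22.3%, with all tested genes at 19.01%.

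Ribosomal protein genes mostly rose in matKO, beside 29.3% of all tested genes that rose. Of 90 tested genes 67 rose and 2 fell, with a median of 1.32 log2 units, against 82 and 0 with a median of 1.88 in controls. The difference was lower for 16 and higher for 0 (lower for 10 without control L2C replicate 2). Rpsa, of the small subunit, went from 3.64, 3.07 and 2.40 to 60.2, 43.4 and 43.3 FPKM, a rise of 3.62 ± 0.16 (limma adjusted p = 3.71e-08), and the control rise was 3.24. Its early control values of 10.6 to 11.4 FPKM lay above those of early matKO embryos and its late control values of 121 and 107 FPKM above those of late ones. Among 44 initiation and elongation factors, 19 rose and 14 fell in matKO (12 rose with median centring, and 9 fell without early matKO replicate 2). Eif3c, a subunit of initiation factor 3, went from 8.10, 11.1 and 6.92 to 27.8, 22.6 and 30.4 FPKM, a rise of 1.54 beside 3.36 in controls.

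Other housekeeping groups held both rises and falls, beside 29.3% and 19.8% for all tested genes. Of 35 proteasome genes 5 rose and 15 fell in matKO (median -0.27), against 14 and 10 in controls (median 0.53), with 9 lower differences (5 without control L2C replicate 2). Psmc1, an ATPase of the proteasome cap, went from 24.6, 32.7 and 26.8 to 6.50, 8.11 and 10.6 FPKM and fell by 1.64 ± 0.19 (limma adjusted p = 2.44e-05), while its control change was 0.19. Psmb1, of the core, rose by 1.82 in matKO. Of 71 mitochondrial ribosomal protein genes 14 rose and 24 fell (median -0.22). Of 20 tRNA synthetase genes 5 rose and 10 fell (median -0.53), with Aars at 1.83 and Farsa at -1.30. Of 54 splicing genes 18 rose and 21 fell, and Snrpc, of the U1 particle, rose by 3.17 from 13.5, 9.58 and 17.95 to 151, 105 and 131 FPKM. Of 80 nuclear respiratory chain and ATP synthase genes 29 rose and 15 fell, while 13 of 15 genes of the mitochondrial genome rose and 0 fell. Mitochondrial mt-Nd5 was at 2312, 1575 and 1696 FPKM early and 3759, 3492 and 4001 FPKM late in matKO, a rise of 1.03. Of 21 glycolysis genes 10 rose and 4 fell. Ldha, which makes lactate from pyruvate, went from 1.27, 0.44 and 1.15 to 7.25, 6.21 and 6.47 FPKM, a rise of 1.99 beside 0.31 in controls and a difference of 1.68 (adjusted p = 0.00736).

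Histone genes mostly rose. Of 63 replication-dependent histone genes 44 rose and 1 fell in matKO, with a median of 0.94 log2 units, against 25 and 7 in controls (median 0.43). The difference was higher for 12 and lower for 0 (higher for 6 without control L2C replicate 1 and 8 without control L2C replicate 2), and 32 rose with median centring. Copies in this family are similar, and H3c11 shares 87.6% of its exonic words with other genes. Cyclin E1 (Ccne1), which drives entry into S phase, went from 7.79, 6.77 and 12.7 to 88.5, 85.9 and 82.2 FPKM and rose by 3.15. Its values did not overlap, and the control rise was 2.88. Cdk1, the mitotic kinase, rose by 2.43. Of the 38 cell cycle genes tested 9 rose and 8 fell in matKO (4 and 18 with median centring), near the 29.3% and 19.8% of all tested genes. Of 13 genes of the p53 response 6 rose and 1 fell (3 rose with median centring). Sesn2, a stress-induced p53 target, went from 1.33, 0.43 and 1.22 to 24.97, 23.8 and 28.5 FPKM in matKO (3.77) and rose by 4.15 in controls. Btg2, another target and a growth inhibitor, rose by 1.54 in matKO against a control change of 0.02, a difference of 1.52 (limma adjusted p = 0.00382).

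Maternal RNAs fell in matKO, and less than in controls. Among all tested genes 19.8% fell in matKO and 23.9% in controls, and 8.81% had a higher difference. Of 25 maternal-effect genes 3 rose and 17 fell in matKO (median -0.57), against 1 and 21 in controls (median -1.38), with the difference higher for 12 and lower for 0. Of 35 genes for zona proteins and other oocyte products 0 rose and 19 fell (median -0.69), against 1 and 23 in controls (median -1.18). The difference was higher for 8 of these (14 without early matKO replicate 2, 5 without control L2C replicate 2). Nlrp4f (ENSMUSG00000032999.10, chr13:65177111-65205977, minus strand), linked to the subcortical maternal complex, was at 513, 580 and 543 FPKM in early and 382, 386 and 370 FPKM in late matKO libraries. In controls it went from 505, 514 and 445 to 89.8 and 81.7 FPKM. The early ranges of the genotypes overlapped, and late matKO embryos stayed far above late controls. Nlrp4f fell by 0.52 ± 0.09 in matKO (SE, limma adjusted p = 0.000337) with a control change of -2.49, a difference of 1.97 ± 0.13 (adjusted p = 4.42e-05). Nlrp14, an oocyte gene of the same family, went from 91.3, 138 and 65.0 to 161, 189 and 172 FPKM in matKO and rose by 0.88, while its control change was -1.11. Ooep, a core member of that complex, went from 51.2, 73.8 and 51.1 to 23.7, 22.9 and 24.4 FPKM in matKO (-1.25) and to 8.18 and 8.91 FPKM in controls (-2.24). Some other stored RNAs also fell in matKO. Zbed3, an abundant oocyte RNA, went from 6544, 5478 and 6430 to 1855, 2231 and 2099 FPKM in matKO, and Bcl2l10, an oocyte survival factor, from 760, 812 and 778 to 161, 179 and 163 FPKM.

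Among 42 genes for deadenylation, decapping and decay, 15 rose and 14 fell in matKO, beside 29.3% and 19.8% of all tested genes. Tob1, which recruits the deadenylase to messages, rose by 2.07, and Tut4, which adds uridine tails, rose by 2.07 from 0.24, 0.17 and 0.34 to 5.05, 3.77 and 3.95 FPKM. Neither differed from controls at the threshold. Of 32 genes of meiotic control and stored messages 5 rose and 16 fell, and Dazl, which promotes translation of stored RNAs, fell by 1.36 from 101, 87.9 and 70.0 to 35.4, 31.3 and 31.6 FPKM.

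The counts for the BAP1 complex and Polycomb stand beside 29.3% of all tested genes that rose and 19.8% that fell. That comparison was not tested. Of 12 genes of its complex and partners 5 rose and 2 fell in matKO (2 rose with median centring). Asxl1, which activates BAP1, fell by 0.82, Yy1 rose by 1.99 and the glycosyltransferase Ogt rose by 0.72, with control changes of -0.70, 1.88 and 0.85. Of 23 Polycomb repressive complex 1 genes, which write the mark that BAP1 removes, 8 rose and 6 fell (12 fell with median centring). Pcgf5 went from 1.35, 0.55 and 5.88 to 30.1, 32.3 and 28.7 FPKM, a rise of 3.42, while Kdm2b went from 110, 178 and 132 to 31.4, 33.4 and 43.9 FPKM, a change of -1.91. Of 12 Polycomb repressive complex 2 genes 3 rose and 3 fell, with Rbbp7, a histone-binding subunit, falling by 2.12. Of 11 DNA methylation genes 1 rose and 7 fell. Tet1, an oxidase of methylcytosine, rose by 2.84 from 0.39, 0.21 and 0.10 to 9.48, 7.05 and 6.95 FPKM, and Dnmt3a, the oocyte methyltransferase, changed by -1.32. Kdm5b, which removes methyl groups from histone H3 lysine 4, rose by 3.47 from 2.85, 1.36 and 1.81 to 34.4, 29.8 and 30.9 FPKM.

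The list of developmental regulators of the families usually held by Polycomb had 183 genes, of which 55 passed the filter. Genes silent in early embryos can pass it only through late libraries, so the filter itself favours rises. An excess of rises in this list therefore cannot be read apart from the filter. Among all tested genes 29.3% rose and 19.8% fell in matKO. Of 55 tested 26 rose and 6 fell in matKO (median 0.46), against 19 and 5 in controls (median 0.20), and the difference was higher for 8 and for 2 to 5 without 1 of the control L2C libraries. At a mean of at least 5 FPKM 8 rose, so most of the risers were at low levels. Foxi3, a forkhead factor, rose by 2.97 in matKO and 2.68 in controls.

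Of 17 tested genes known to be expressed from the paternal allele by imprinting, 7 rose and 0 fell in matKO (4 rose with quantile normalization), against 10 and 3 in controls. All tested genes stood at 29.3% risen and 19.8% fallen in matKO. Alleles were not resolved. The splicing factor gene Zrsr1 rose by 1.26 from 1.98, 2.85 and 2.80 to 7.28, 6.36 and 8.82 FPKM. Y-linked Eif2s3y, an initiation factor gene, was listed at 0 in the 3 early matKO libraries and at 2.85, 0.34 and 2.65 FPKM in the late ones, and at 2.86 and 3.19 FPKM in late controls.

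Markers of other cells were scarce. The 18 granulosa and cumulus markers summed to 3.88 to 4.41 FPKM in early and 5.47 to 5.70 FPKM in late matKO libraries, with 7 of 18 at 0 in both groups, and to 13.4 to 14.2 FPKM in late controls. Blood markers summed to at most 1.88 FPKM in matKO. The sperm list of 14 genes summed to 97.0 to 113 FPKM early and 101 to 110 FPKM late in matKO, with 12 of 14 under 1 FPKM in late libraries and Odf2, also a centrosome gene, as the main member. Among markers of the egg and embryo, Nlrp5 was at 75.1, 135 and 70.6 FPKM in early and 44.5, 44.2 and 51.6 FPKM in late matKO libraries.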

How the data were processed

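Total RNA of 2-cell embryos was sequenced from SMART-Seq Stranded libraries, per the labels' protocols. Per the submitters' processing notes, Trim Galore 0.6.6, STAR 2.7.9, StringTie 2.1.7 and mm10 were used; their roles, the annotation and the strand setting are not given in the sources used here. The values the authors deposited are FPKM in 1 table of 55401 genes. FPKM keep no read numbers. Low values multiplied by exonic length lay within 0.05 of a whole step for 0% to 22.2% of the 3 to 37 values checked in each 2-cell library, so depth could not be recovered and is unknown, no counting interval was computed and the number of libraries limits the precision. Of the gene identifiers 54349 match GENCODE M21 (GRCm38) exactly and 55141 when versions are ignored; symbols and positions are from that release. All value columns were matched to samples, with 0 left over. The table of embryonic day 6.5 lineages was not used here.

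Genes reaching 1 FPKM in 2 or more of 11 libraries were fitted as log2(FPKM + 1), which understates changes of low genes, with limma 3.58.1 (R 4.3.3) on 4 group means with an intensity trend; tests are two-sided, with Benjamini-Hochberg adjustment over 14051 genes at 0.05. Contrasts were late minus early in matKO, the same in controls, and their difference. Members and lists were chosen with earlier results of these data known. The genes named were Bap1, the 12 largest rises and 12 largest falls, the 6 largest differences each way, the 3 largest called changes of each list and all members of lists of at most 8, 141 in all, plus 16 chosen after their values were seen (Zfp352, Zscan4c, Tcstv3, Nr5a2, Nfya, Tead4, Ubtf, Taf1a, Brf2, Nol6, Rpf2, Emg1, Surf6, Nlrp4f, Nlrp14 and Ooep). Some of the genes so named are not reported here. A few further list members are named as examples and were likewise chosen after their values were seen. Rises and falls named by size needed separate libraries and a group mean of at least 5 FPKM. Shared 50-base words were counted over exons. Promoters are RefSeq entries of GRCm38.p6. On simulated data of 14051 genes the matKO contrast recovered 74.6% of changes of 1 log2 unit (50 of 67) and 97.0% of those of 2 (65 of 67). It also recovered all 66 changes of 4, with 47 false calls. The difference recovered 43.3% (29), 88.1% (59) and 98.5% (65), with 19 false calls. False calls thus made up a larger share of the calls than the threshold of 0.05 aims for. Only genes with a mean log2(FPKM + 1) above 2 were changed, so recovery in lower genes was not tested. Python 3.11.15 with pandas 2.3.3, numpy 2.4.6 and matplotlib 3.10.9 made tables and plots. Alternatives were another pseudocount, filters, TPM, median, quantile and top-gene scaling, fits of 1 genotype or 26 libraries, array weights, no trend, a 2-fold limit, the replicate block and leaving out each library.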

Additional observations from a re-analysis of the deposited data

Results flagged for a closer look

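The change from early to late 2-cell was tested for a difference between genotypes in all 14051 genes, and each value here is the matKO change minus the control change in log2 units. The difference passed the threshold upward for 1238 genes and downward for 1108, by limma with Benjamini-Hochberg adjustment. Of the 152 genes named in tables and tested, 62 passed, beside 16.7% of all tested genes in either direction. Some of the 152 were named for the size of this difference, and others after their values were seen. The number that passed is therefore partly set by the choice of genes.

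The largest upward differences were of the histone gene H2ac18 at 10.52 and the vomeronasal receptor pseudogene Vmn2r-ps61 at 4.20. Of the minor-wave genes, Eif4a3l1 was at 4.14, Zscan4f at 3.51, Zscan4c at 3.25, Zfp352 at 3.15 and Tcstv3 at 2.05. The immunoglobulin segment Ighv1-60 was at 3.99. Shared words made up 36.8% of Ighv1-60, 47.5% of Eif4a3l1, 86.8% of Zscan4f, 85.5% of Zscan4c, 31.4% of Tcstv3 and 7.09% of Zfp352. Among Obox genes the values were 3.47 for the pseudogene Obox3-ps7, 2.20 for Obox3-ps2, 2.49 for Obox3, 1.89 for Obox7, 1.67 for Obox5, 1.54 for Obox1 and -1.35 for Obox8. Obox3-ps2 shares 77.5% of its words with other genes, and Obox3-ps7 shares 0%. Duxf3 was at -1.12 and AW822073 at -1.14, and neither was called with a pseudocount of 0.1 (-0.51 and -0.42).

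Downward differences were also seen in Tor1b at -3.60, Timm10 at -3.08, Pwp2 at -2.79, Lck at -2.73, Heatr1 at -2.71, Osbpl6 at -2.69, Fgf4 at -2.49, Rpf2 at -2.36, Nol6 at -2.35, Brf2 at -2.07, Emg1 at -1.91 and Tead4 at -1.91. Tor1b, which encodes an ATPase of the nuclear envelope and ER, was listed at 0 in every early matKO library and at 1.05, 2.01 and 3.29 FPKM in the late ones, against 37.7 and 40.4 FPKM in late controls. Timm10, of the mitochondrial import machinery, was at 3.50, 0.72 and 1.15 FPKM in late matKO libraries and at 14.4 and 10.96 FPKM in late controls. Smaller downward values were -1.87 for Amhr2, -1.83 for Psmc1, -1.82 for Eif3c, -1.53 for Taf1a, -1.44 for Surf6, -1.43 for Nfya, -1.31 for Noc2l, -1.15 for Ubtf, -0.98 for Exoc3l2 and -0.58 for Eif3a.

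Further upward values were 2.17 for Hspa2, 1.99 for Nlrp14, 1.97 for Nlrp4f, 1.68 for Ldha, 1.60 for Sox2, 1.57 for Jade1, 1.52 for Btg2, 1.45 for Fbxo15, 1.29 for Snrpc, 1.10 for Hipk1, 1.03 for Eif1b, 1.00 for Nlrp9b, 0.98 for Ooep and 0.91 for Cyp19a1. Between 0.72 and 0.82 lay Mrps30 (0.82), Dazl (0.82), Rfpl4 (0.81), Pttg1 (0.80), Hsp90b1 (0.77), Zfp57 (0.74), Bap1 (0.73) and Vps72 (0.72). Quantile normalization ended the call for Zfp57 (0.46), a pseudocount of 0.1 ended it for Fgf4 (-2.82) and Tead4 (-2.14), and testing without a filter ended it for Zscan4f. Leaving out 1 library ended the call for Bap1, Hipk1, Obox3-ps2, Exoc3l2, Duxf3, Vps72, Obox3-ps7, Obox3, Obox8, Sox2, Noc2l, Mrps30, Hsp90b1, Snrpc, Eif3a, Dazl, Jade1, Cyp19a1, Ubtf, Brf2 and Emg1.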

How the results depend on the processing

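With only 2 late control libraries the difference between genotypes is the least certain contrast, and dropping either leaves 1 library assumed to vary like the other groups. Leaving out each library gave 3585 to 3804 rising and 2230 to 2584 falling genes in matKO, 3377 to 4151 and 2589 to 3127 in controls, and 750 to 1182 higher and 515 to 1075 lower differences, lowest without control L2C replicate 2. Lower differences numbered 722 with a pseudocount of 0.1 and 680 at a mean of at least 5 FPKM, where fewer genes were tested and rises numbered 2043 in matKO and 2101 in controls. The fit of all 26 libraries gave 2361 higher and 2261 lower differences. Median centring gave 4486 falls in matKO. A 2-fold limit gave 2483 rises and 943 falls in matKO and 1843 falls in controls. Of the 6898 genes called in matKO, 5693 were called in the same direction with median centring, where 15 turned sign, 5785 with quantile normalization, 6406 with TPM and 6635 with a pseudocount of 0.1.

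The replicate numbers were used as a block, although same-numbered matKO libraries correlated at only 0.05, 0.02 and -0.05 in their deviations. Values for unlike-numbered ones ran from -0.06 to 0.06. They cannot settle whether the numbers pair libraries, and the labels do not say. With the block there were 670 lower differences, and 1463 of the 2346 called differences passed, against 6425 of the 6898 matKO calls.

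With a pseudocount of 0.1 the differences of Exoc3l2 (0.41) and Obox8 (0.47) reversed. The uncalled matKO change of Zscan4c was -0.10 with TPM, -0.041 without the top gene, -0.24 with median centring and -0.047 with array weights, and ran from -0.40 to 0.33 over fits without 1 library. That of Timm10 was -0.036 with quantile normalization and ran from -0.049 to 0.65. The causes were not tested. Depth could not be recovered, so its part in low values was not tested.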
